A study of Mus musculus with 12 samples.

Results

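Testes of mouse embryos at stage E15.5 that lacked Dmrt1 were compared with wild-type testes in the B6 strain. The comparison rests on 6 arrays, 3 labelled B6 Dmrt1 knockout and 3 labelled B6 wild type, out of 12 Affymetrix arrays in the series. The other 6 arrays hold the same 2 genotypes in the 129Sv strain and entered the filter on low values, the choice of 1 probe set for each gene, the estimate of spread and the tests of a difference between strains. All probe sets with a log2 intensity of at least 4 on at least 3 of the 12 arrays were taken, which left 24820 of 45101 probe sets. Of these, 21900 named 1 gene, 609 named several and 2311 named none, and they gave 12726 genes to test out of 18193 on the array, 1 probe set for each gene. A gene could therefore pass the filter through 129Sv arrays, and with the filter set on the 6 B6 arrays 274 genes were called higher and 569 lower, and 119 of the 128 calls named here were still tested. The series text calls the removal of Dmrt1 conditional, whereas the sample labels say knockout. The sources used here do not give the Cre driver, the deleted part of the gene, the number of animals per array, or whether the wild types carried a floxed allele or Cre. 1 protocol text gives the stage as P28, against E15.5 everywhere else, and E15.5 was taken.

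Dmrt1 encodes a transcription factor with a DM domain, a DNA-binding fold shared by sex-determination genes of flies, worms and vertebrates. In the fetal mouse testis it is made by both germ cells and Sertoli cells, the somatic cells that enclose the germ cells in cords. Around this stage male germ cells leave the cell cycle, silence the pluripotency genes they share with early embryos, and prepare for de novo DNA methylation and for the piRNA pathway, in which PIWI proteins loaded with small RNAs silence transposons. Mice of the 129Sv family form testicular teratomas from such cells, whereas B6 mice rarely do.

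The arrays were alike in overall brightness, with medians of 18.48, 18.89 and 17.58 on knockouts 1, 2 and 3, but knockout 3 stood apart from the other 5. Its Actb signal was 6.30 times as high with the 3′ as with the 5′ probe set, a sign of RNA quality that was 1.99 to 2.79 on the others. It correlated with the other knockout arrays at r = 0.965 and 0.968 across probe sets, whereas knockout 1 and knockout 2 correlated at 0.993 and the wild types at 0.978 to 0.989. On knockout 3, 767 genes lay at least 1 log2 unit above the wild-type mean, compared with 104 on knockout 1 and 164 on knockout 2. At least 1 log2 unit below that mean lay 749 genes on knockout 3, 470 on knockout 1 and 427 on knockout 2. Results that depend on it are therefore given with and without that array. Titles of wild type 1 and knockout 1 share a number, as do those of wild type 2 and knockout 2, while the final number in each title is 1 to 3 for knockouts and 4 to 6 for wild types. If that number is an order of processing, genotype and order cannot be told apart. Since no label says that the arrays come from separate animals, p-values here measure only how these samples spread.

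Markers fitted the labelled tissue on all 6 arrays. Ddx4, an RNA helicase of germ cells, read 1700.0 to 3223, Sox9 of Sertoli cells 557 to 1072, and Cyp17a1, a steroid hormone enzyme of Leydig cells, 4401 to 8415. The Y-linked gene Eif2s3y lay between 1741 and 3157, and Xist, which is transcribed from the inactive X chromosome of females, did not exceed 4.76. The testes were measured whole, so a lower value from fewer cells of a type and one from less RNA per cell cannot be told apart.

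The knockout lowered more genes than it raised. At an adjusted p under 0.05, limma called 312 genes higher in the knockout, 2.45% of those tested, and 693 lower, or 5.45%, which is 7.9% in all. At an unadjusted p under 0.05, 3150 of the 12726 tested genes passed in limma, counting either direction. The groups did not overlap for 989 of the 1005 genes called at the adjusted p, whereas 27.7% of all tested genes had no overlap between the 3 knockout and the 3 wild-type arrays. The falls were also deeper. Among the genes that fell, 400 did so by at least 1 log2 unit, 104 by at least 2 and 27 by at least 3, compared with 95, 9 and 2 of the genes that rose. For 221 of the lower genes the knockout mean was below a log2 intensity of 4, the level under which intensities carry little signal. A fold across that level was computed against 4 and is written as "at least". Over all probe sets past the filter, 1144 of 24820 passed, or 4.61%, among them 115 of the 2920 that name no gene or several. Of 321 called genes with several probe sets, all probe sets were called in the same direction in 61. All had the same sign in 272, and 1 gene had a probe set called the opposite way.

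**Figure D1:**
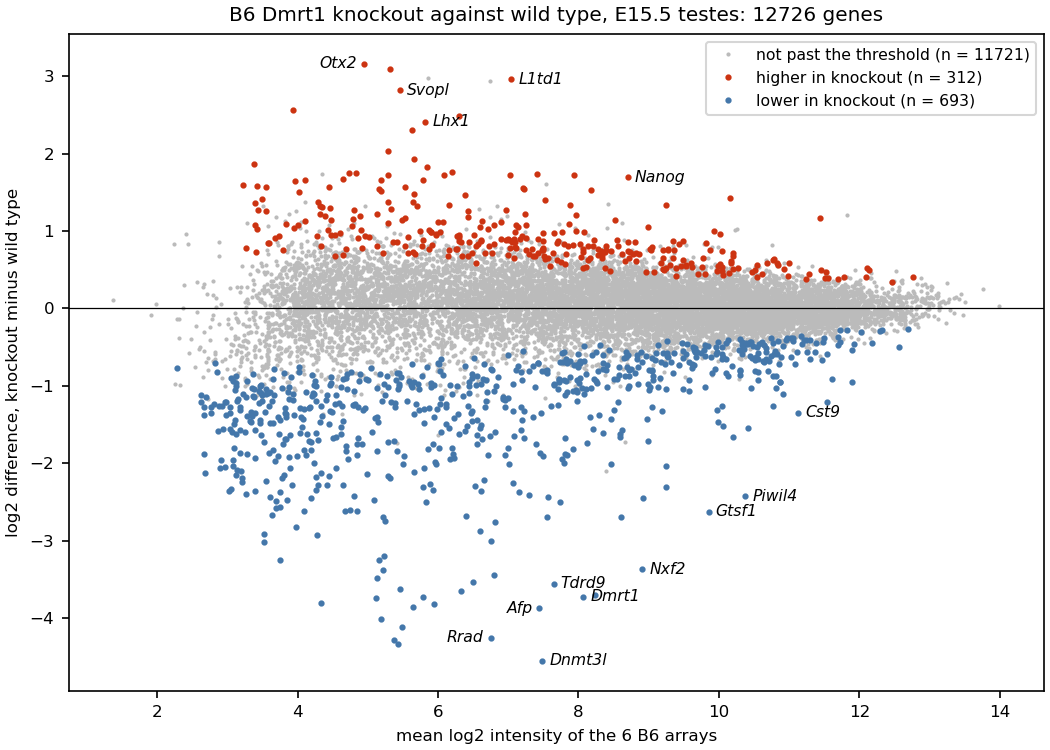
Log2 difference of B6 knockout minus wild type (vertical axis) against the mean log2 intensity of the 6 B6 arrays (horizontal axis) for 12726 genes. Red points are the 312 genes called higher, blue points the 693 called lower and grey points the rest, and the lower genes reach beyond -4 whereas the higher genes end near 3.

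Without knockout 3, 203 genes were higher and 588 lower, 6.22% of those tested, and 162 and 516 of them were shared with the calls from all arrays. The count of higher genes also moved by more than 1.5 times without wild type 2 (185), wild type 3 (109), knockout 1 (533) or knockout 2 (182), and the count of lower genes without wild type 2 (443) or wild type 3 (322). When the Actb ratio entered the model as a covariate, the counts were 141 higher and 477 lower.

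Dmrt1 itself, with 1 probe set, read 795, 1092 and 1066 on wild types 1, 2 and 3 and 86.4, 63.97 and 72.9 on knockouts 1, 2 and 3, the order kept for all values here. The highest knockout array thus stood far below the lowest wild-type array. The log2 difference was -3.72 ± 0.17 (SE, limma adjusted p = 1.97e-08), which left 7.58% of the wild-type level, and a two-sided exact permutation test gave p = 0.1, the smallest that 3 arrays against 3 allow. Every alternative setting kept the difference between -3.46 and -3.87. The knockout readings remained above the filter intensity of 16, and whether they stem from cells that kept the gene, from shortened transcripts or from the background of this probe set was not tested.

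Genes of de novo DNA methylation and chromatin silencing held the most negative log2 difference among the genes called. Of 18 tested, 4 fell, 14 did not pass and none rose in limma (2 were higher at an unadjusted p under 0.05), and the list's median difference was -0.11 beside 0.03 over all tested genes. In either direction, 3150 of the 12726 tested genes had an unadjusted limma p under 0.05. The share of all tested genes that fell was 5.45%. Dnmt3l, whose product stimulates the DNA methyltransferases in fetal male germ cells, read 571, 711 and 1604 in wild types and 17.7, 25.9 and 109.7 in knockouts. The knockout arrays were all lower, with knockout 3 nearest to the wild types. The log2 difference was -4.55 ± 0.52 (SE, limma adjusted p = 0.000107), a 23.5-fold fall, and it was -5.34 without knockout 3. Morc1, needed for transposon silencing in male germ cells, read 1034, 1018 and 1387 against 173, 197 and 263, without overlap (-2.45 ± 0.19, adjusted p = 4.07e-06). Kdm1b, a histone H3 lysine demethylase known for its part in oocyte imprints, read 1105, 1003 and 1692 against 348, 362 and 216 (-2.04 ± 0.25, adjusted p = 0.000178).

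The DNA methyltransferases themselves moved far less than their cofactor. Dnmt3a, a de novo methyltransferase, read 2094, 2446 and 3453 in wild types and 1606, 1639.7 and 1798 in knockouts, and fell by 0.63 on the log2 scale (adjusted p = 0.0411), a call lost without wild type 2 or 3 or knockout 1, 2 or 3 (adjusted p up to 0.202). None of the 5 Dnmt3a probe sets passed in the fit over probe sets. The de novo enzyme gene Dnmt3b (0.00 ± 0.13, adjusted p = 0.992), the maintenance enzyme gene Dnmt1 (0.05 ± 0.09, 0.75) and its partner Uhrf1 (-0.02 ± 0.09, 0.903) did not pass. These last 3 genes were chosen after their values were seen.

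The piRNA pathway and the germ granule, the cytoplasmic body in which it works, fell as a broad group. Of 20 tested members 13 fell, 1 rose and 6 did not pass, and the median difference was -1.14. The shares over all tested genes were 5.45% that fell and 2.45% that rose. Averaged over the members, the log2 level was 8.57 to 9.11 on the wild-type arrays and 7.41 to 7.68 on the knockout arrays. Without knockout 3 the counts were 12 that fell and 1 that rose, and with any other single array left out between 11 and 16 fell.

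All 3 PIWI genes of the mouse were among those that fell. Piwil4, whose product carries piRNAs into the nucleus of fetal germ cells, read 2921, 2769 and 3612 in wild types and 506, 367 and 1015 in knockouts. The groups were far apart, and knockout 3 was the highest knockout (-2.42 ± 0.28, SE, limma adjusted p = 0.000113). Its second probe set did not pass. Piwil2, which acts in the cytoplasm, read 4012, 4314 and 5404 against 2121, 2275 and 1555, a smaller step without overlap (-1.21 ± 0.15, adjusted p = 0.000155). Piwil1, best known from later meiotic and postmeiotic cells, read 77.8, 111 and 169 against 9.45, 10.6 and 18.9, at least 7.098-fold lower (-3.20 ± 0.38, adjusted p = 0.000144).

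Partners of the PIWI proteins fell with them. Tdrd9, a helicase that acts with Piwil4, read 535, 460.2 and 1314 in wild types and 39.8, 44.2 and 113 in knockouts (-3.56 ± 0.48, adjusted p = 0.000363), the deepest fall of the list. Gtsf1, a zinc finger partner of PIWI proteins, was even among wild types at 2271, 2401 and 2228 and dropped to 323, 302 and 532 (-2.62 ± 0.22, adjusted p = 7.68e-06). Exd1, which binds piRNA-processing complexes, read 93.9, 156 and 193 against 61.1, 34.9 and 26.9 (-1.88 ± 0.31, adjusted p = 0.00172). Tdrd1, a Tudor domain scaffold of the germ granule, read 22.6, 39.1 and 46.2 against 11.7, 8.75 and 8.94 and fell at least 2.15-fold, a call lost with log2 values floored at 4 (adjusted p = 0.069). The remaining falls, named to complete the count, were those of the helicase gene Mov10l1 (2.91-fold), Tdrd5 (2.65-fold), Henmt1, which methylates the ends of piRNAs (2.21-fold), Mael (1.94-fold), Asz1 (1.81-fold) and the trimming enzyme gene Pnldc1 (1.75-fold). Rnf17, another Tudor domain gene, rose from 499.7, 549 and 457 to 795, 716 and 620.2 (1.41-fold, adjusted p = 0.0323), a call lost without wild type 1, wild type 3, knockout 1 or knockout 2 in turn. Ddx4, the helicase that marks the germ granule and germ cells at large, read 3060.1, 2859 and 3223 against 2771, 2298 and 1700.0 and did not pass (-0.46 ± 0.15, adjusted p = 0.0855).

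**Figure D2:**
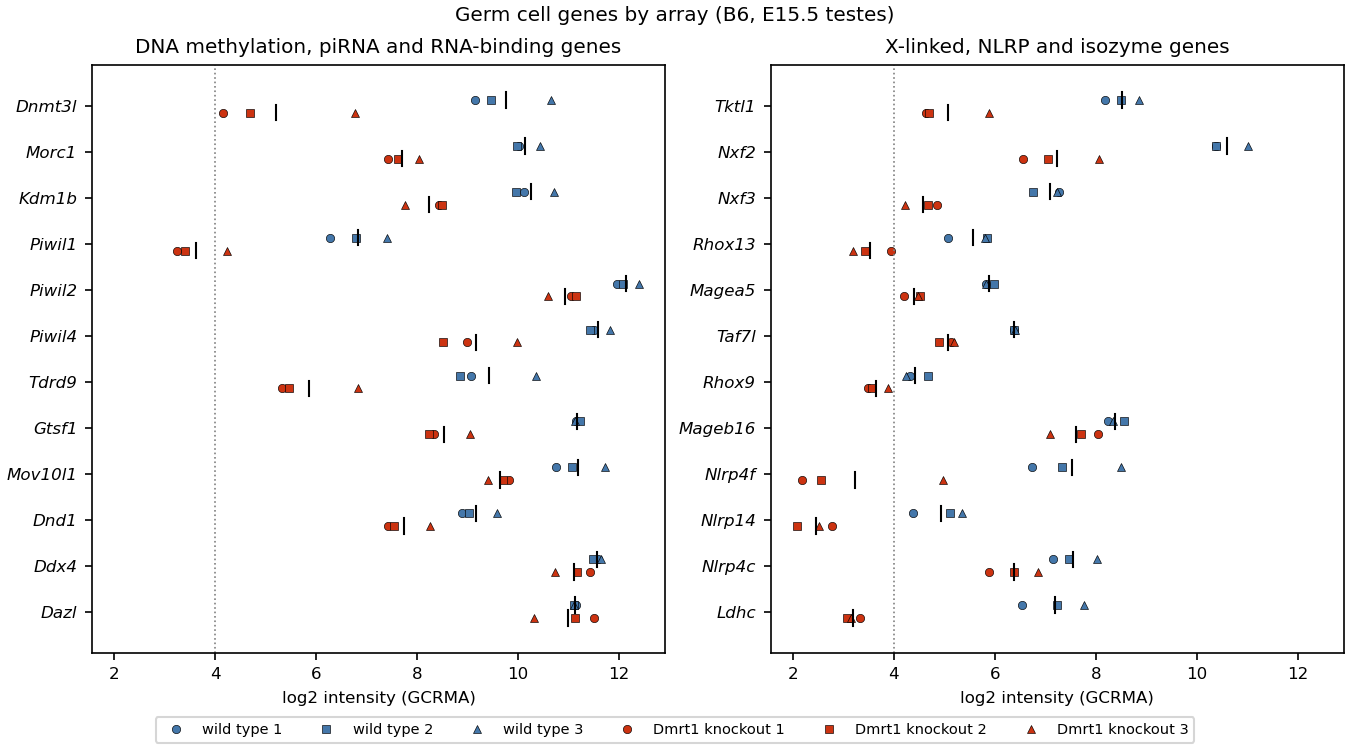
Log2 intensity (horizontal axes) of germ cell genes on each of the 3 wild-type arrays (blue) and 3 knockout arrays (red), with symbols for the replicate and vertical bars at the group means. Piwil1, Dnmt3l, Tdrd9 and Ldhc are set apart by several log2 units, whereas Ddx4 and Dazl lie near each other in both groups, and the dotted line marks a log2 intensity of 4.

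Germ cell genes of the X chromosome fell together. Of 11 tested members of a list of Rhox homeobox genes and other X-linked genes of germ cells, 8 fell, 3 did not pass and none rose in limma (0 were higher at an unadjusted p under 0.05), with a median difference of -1.31. The share of all tested genes that fell was 5.45%. The list's mean log2 level was 6.77 to 7.01 on the wild-type arrays and 5.20 to 5.39 on the knockout arrays. The count was 8 without knockout 3 and 6 or 7 without any other single array. Nxf2, an RNA export factor gene, read 1333, 1339.7 and 2079 in wild types and 93.8, 133 and 269 in knockouts. All knockout arrays were lower by a wide margin, and knockout 3 was the highest of them (-3.37 ± 0.36, SE, limma adjusted p = 5.90e-05). Its relative Nxf3 read 155, 108 and 149 against 28.8, 25.5 and 18.6 (-2.50 ± 0.30, adjusted p = 0.000155). Tktl1, a transketolase-like gene, read 291, 363 and 466 against 24.97, 25.7 and 59.1 (-3.45 ± 0.36, adjusted p = 4.07e-05), and its 3 probe sets all passed. Taf7l, which encodes a germ cell form of a TFIID subunit, was nearly constant within each group at 83.6, 82.96 and 84.4 and 35.00, 29.9 and 36.7 (-1.31 ± 0.18, adjusted p = 0.000385). Rhox13 fell at least 2.98-fold and Magea5 2.78-fold, and Rhox9 (at least 1.33-fold) and Mageb16 (1.697-fold) complete the count.

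With that list included, the X chromosome as a whole had a larger share of lower genes than any autosome. Of its 448 tested genes 40 were lower, or 8.93%, and 8 were higher, or 1.79%, and the lower share was between 3.93% and 7.25% on the autosomes. Outside the list 32 of 437 were lower, or 7.32%, about the level of the highest autosome, chromosome 16 at 7.25%. Without knockout 3 the X chromosome, list included, had 36 lower genes, 8.04%, beside 4.62% over all genes. These shares are a description, since genes are not independent replicates.

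Germline NLRP genes, relatives of the inflammasome sensors that are active in germ cells and oocytes, showed the same direction. Of 5 tested, 3 fell and 2 did not pass, against 5.45% of all tested genes that fell. Nlrp4f read 107, 160.2 and 361 in wild types and 4.50, 5.89 and 31.4 in knockouts (-4.29 ± 0.62, adjusted p = 0.000569). Nlrp14 fell from 20.8, 34.4 and 40.5 to 6.79, 4.20 and 5.72, below the level of reliable signal on every knockout array. Nlrp4c read 143, 178 and 259 against 59.04, 82.9 and 116 (-1.18 ± 0.26, adjusted p = 0.0117), a call lost without wild type 3 (adjusted p = 0.0744). The other 6 members on the array stayed below the filter.

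General germ cell genes split between rises and falls. Of 17 tested, 6 fell, 3 rose and 8 did not pass, against 5.45% of all tested genes that fell and 2.45% that rose. The list's median was -0.46. The list's average log2 level was 8.39 to 8.70 in wild types and 8.30, 8.10 and 7.80 in knockouts 1, 2 and 3. Its part in the falls of single germ cell genes was not tested. Dazl, an RNA-binding protein gene of all germ cells, read 2287, 2208 and 2204 against 2930.0, 2258 and 1272 and did not pass (-0.13 ± 0.20, adjusted p = 0.71). Brdt, a bromodomain gene of spermatogenic cells, read 209, 224 and 528 in wild types and 39.8, 53.6 and 37.8 in knockouts. No arrays overlapped and the fall was 6.75-fold (-2.75 ± 0.35, adjusted p = 0.000203). Tex101, a membrane glycoprotein gene of germ cells, fell 5.43-fold. Dnd1, an RNA-binding protein gene whose loss causes germ cell tumours in 129Sv mice, read 477, 523 and 770.3 against 172, 188 and 304 (-1.43 ± 0.25, adjusted p = 0.00216). Taf7l, Taf4b (1.82-fold) and Hormad1 (1.57-fold) make up the rest of the falls.

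The 3 that rose were 2 PRDM genes of primordial germ cells and a neuronal-type RNA-binding protein gene. Elavl2, the latter, read 667, 659 and 686 in wild types and 1379, 1259 and 998 in knockouts (1.79-fold, adjusted p = 0.00106). Prdm14, which keeps germ cells and embryonic stem cells in a pluripotent state, read 12.7, 16.4 and 13.2 against 89.8, 54.1 and 18.3. Knockout 3 lay just above the wild types, and the rise (1.67 ± 0.40, adjusted p = 0.0193) was lost without wild type 1 or 3 or knockout 2 (adjusted p up to 0.077). Prdm1, a regulator of germ cell specification, read 78.1, 117 and 104 against 275, 280.5 and 109.9. Knockout 3 lay among the wild types, and the call (adjusted p = 0.042) was lost without wild type 1, 2 or 3 or knockout 1 or 2 (adjusted p up to 0.143). The count of 3 rises became 1 without wild type 1, wild type 3 or knockout 2, and 2 without wild type 2 or knockout 1.

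Genes of prospermatogonia, the arrested fetal male germ cells, and of the spermatogonia they become went both ways. Of 20 tested, 5 fell, 4 rose and 11 did not pass, against 5.45% of all tested genes that fell and 2.45% that rose. The 5 falls were also counted with any single array left out. Tspan8, a tetraspanin gene of spermatogonia, read 209.6, 314 and 523 in wild types and 28.3, 80.5 and 108 in knockouts (-2.38 ± 0.40, adjusted p = 0.00196), and its 4 probe sets all passed. Sohlh1, a bHLH factor gene of spermatogonial differentiation, fell from 28.4, 35.4 and 77.9 to 6.90, 6.81 and 10.2, at least 2.67-fold (-2.45 ± 0.49, adjusted p = 0.00619), and was lost with log2 values floored at 4 or a pseudocount of 16 (adjusted p up to 0.105). Its partner Sohlh2 differed in the other direction, with 26.4, 29.8 and 17.9 against 93.5, 88.9 and 29.7, where knockout 3 overlapped the wild types. That rise (adjusted p = 0.0408) was lost without wild type 1, 2 or 3 or knockout 1 or 2 (adjusted p up to 0.174). Cdh1, the E-cadherin gene, rose on all 3 knockouts from 393, 539.7 and 261 to 991, 1030.2 and 876 (1.34 ± 0.21, adjusted p = 0.00122). Ret, the receptor tyrosine kinase for GDNF, fell from 13.1, 17.96 and 13.2 to 4.26, 5.07 and 5.17, with both group means below the limit of signal, and the call was lost with log2 values floored at 4 (adjusted p = 0.827). Zbtb16, the PLZF gene, and Id4, both used as spermatogonial stem cell markers, gave -0.60 ± 0.26 (adjusted p = 0.175) and -0.11 ± 0.22 (adjusted p = 0.793), neither past the threshold. The other members that passed were Stk31 (2.39-fold lower), Uchl1 (1.83-fold lower), Lhx1 and Etv4. In the counts of rises, 4 became 2 without wild type 1 or 3 and 1 without knockout 2.

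Meiotic genes also moved in both directions. Of 14 genes of meiotic entry, cohesin and recombination 3 fell and 2 rose, and of 10 genes of the synaptonemal complex, which joins homologous chromosomes, 4 fell and 2 rose. The shares over all tested genes were 5.45% that fell and 2.45% that rose. Tex15, which is needed for both transposon silencing and recombination, read 1942, 1638 and 2850.0 in wild types and 600.0, 559.6 and 851 in knockouts. The gap between the groups was wide (-1.66 ± 0.21, SE, limma adjusted p = 0.000194). Stag3, a meiotic cohesin subunit gene, fell 2.12-fold (adjusted p = 0.0121), a call lost without wild type 3 (adjusted p = 0.067). Stra8, the retinoic acid target that licenses meiotic entry, read 69.2, 39.9 and 28.97 against 14.4, 16.4 and 25.6. The lowest wild type was close to the highest knockout, and the fall (-1.24 ± 0.32, adjusted p = 0.0256) was lost without wild type 1 or 2 or knockout 1 or 2 (adjusted p up to 0.0949). Rec8, the meiotic kleisin, rose from 44.95, 43.4 and 46.2 to 72.5, 75.9 and 80.3 (1.698-fold), lost without any single B6 array (adjusted p up to 0.11). Mei4, a partner of the meiotic break machinery, read 8.39, 7.84 and 6.39 against 12.4, 13.5 and 21.4, with only knockout 3 above an intensity of 16, and was lost without wild type 2 or 3 or knockout 3 (adjusted p up to 0.12). With 1 array left out, 0 or 1 gene of each of these lists rose.

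Within the synaptonemal complex the central element genes Tex12 and Syce3 fell and Syce2 rose. Tex12 read 780.1, 903 and 1096 in wild types and 233, 218 and 435 in knockouts (-1.71 ± 0.27, adjusted p = 0.00106). Syce3 fell 2.44-fold and Syce2 read 960.2, 1069.8 and 938 against 1350.3, 1327 and 1568, a 1.43-fold rise lost without wild type 1, 2 or 3 or knockout 2 or 3 (adjusted p up to 0.142). Of the lateral and axial element genes, Sycp3 fell from 1831, 1631 and 1477 to 942, 605 and 566 (-1.26 ± 0.21, adjusted p = 0.00167), and Hormad1 fell 1.57-fold, a call lost without wild type 2 or 3 or knockout 2 or 3 (adjusted p up to 0.14). Sycp2 overlapped between the groups (-0.57 ± 0.27, adjusted p = 0.21). Sycp1, the transverse filament gene, rose from 247, 219.6 and 249.6 to 528, 415 and 304 (1.700-fold), lost without wild type 1, 2 or 3 or knockout 1 or 2 (adjusted p up to 0.105).

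Testis-specific isozymes and genes of the sperm tail were in part already measurable in wild types at this stage. Of 9 isozyme genes and their somatic counterparts, 2 fell and 2 rose, and 6 more on the array stayed below the filter. Over all tested genes 5.45% fell and 2.45% rose. Ldhc, the lactate dehydrogenase of spermatogenic cells, read 93.5, 151 and 219 in wild types and 10.1, 8.35 and 8.85 in knockouts. Every knockout array was below an intensity of 16 (-4.01 ± 0.35, SE, limma adjusted p = 1.01e-05), and the second probe set passed too. Its somatic relative Ldhb rose from 3570.3, 3994 and 3579.5 to 5235, 5005 and 5701 (1.43-fold, adjusted p = 0.0151), a call lost without wild type 3 (adjusted p = 0.0727). Glud1, the mitochondrial glutamate dehydrogenase, rose 1.496-fold (adjusted p = 0.0128), lost without wild type 2 or 3 or knockout 2 (adjusted p up to 0.0634). In the fit over probe sets, 1 of the 2 Glud1 probe sets passed. The count of 2 rises was 0 without wild type 3 and 1 without wild type 2 or knockout 2.

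Axonemal and ciliary genes held 1 of the largest falls and 1 of the largest rises. Of 13 tested, 3 fell, 2 rose (4 without knockout 1) and 8 did not pass. Over all tested genes 5.45% fell and 2.45% rose. Drc1, part of the nexin-dynein regulatory complex of flagella, read 182, 315 and 408 in wild types and 17.1, 22.5 and 30.5 in knockouts (-3.66 ± 0.51, adjusted p = 0.000441). Tekt1, a tektin gene, fell 3.75-fold from 54.5, 81.4 and 155 to 19.97, 20.8 and 31.4, and Ccdc40 fell close to the limit of signal, lost without wild type 3 (adjusted p = 0.0899). Dnaic1, an intermediate chain gene of outer arm dynein, went the opposite way, from 19.2, 28.6 and 20.4 in wild types to 145, 105 and 88.7 in knockouts. All 3 knockouts stood far above the highest wild type (2.30 ± 0.21, adjusted p = 1.59e-05), and both of its probe sets passed. Rfx2, a regulator of ciliary genes, rose 1.91-fold, with a single probe set (0.94 ± 0.20, adjusted p = 0.0103). The call was lost with only the 6 B6 arrays in the fit and with the Actb ratio as covariate (adjusted p up to 0.0554).

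Genes of the core pluripotency network rose, most of them on knockouts 1 and 2 more than on knockout 3. Of 25 tested, 12 rose, 3 fell and 10 did not pass, and the median difference was 0.49. The shares over all tested genes were 2.45% that rose and 5.45% that fell. Averaged over the list, the log2 level was 8.49 and 8.45 on knockouts 1 and 2, 7.63 on knockout 3 and 7.52 to 7.91 on the wild types. Without knockout 3, 11 rose and 3 fell, with a median of 0.65. The count of rises was 7 without wild type 1 or knockout 2, and between 8 and 10 without wild type 2 or 3 or knockout 1.

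Nanog, a homeobox gene that maintains pluripotency, read 234, 296 and 179 in wild types and 962, 767 and 573 in knockouts. All 3 knockouts lay well above the highest wild type (1.70 ± 0.22, SE, limma adjusted p = 0.000248). L1td1, an RNA-binding protein gene derived from a LINE-1 element, read 58.7, 54.1 and 33.2 against 599.7, 514 and 161, the largest rise of this list (2.96 ± 0.43, adjusted p = 0.000573). Tcl1, a coactivator of AKT kinases in embryonic stem cells, read 94.7, 98.1 and 85.7 against 303, 384 and 256 and separated the groups on every array (1.74 ± 0.17, adjusted p = 2.05e-05). Esrrb, an orphan nuclear receptor gene, read 36.9, 43.2 and 39.4 against 164, 194 and 76.95, with knockout 3 lowest among the knockouts (1.76 ± 0.31, adjusted p = 0.0023). Sox2 read 318, 361 and 386 against 1016, 855 and 451 (1.05 ± 0.25, adjusted p = 0.0177), lost without wild type 1 or 2 or knockout 1 or 2 (adjusted p up to 0.0673). Gdf3, a TGF-beta family ligand gene, read 18.3, 31.4 and 15.8 against 95.1, 84.8 and 28.03, where knockout 3 overlapped the wild types, and its rise (adjusted p = 0.0229) was lost without wild type 1 or 3 or knockout 1 or 2 (adjusted p up to 0.113). In the fit over probe sets, 1 of the 2 Gdf3 probe sets passed. Dppa5a (2.25-fold), Klf5 (2.25-fold), Klf2 (1.99-fold), Nr5a2 (1.99-fold), Fbxo15 (1.53-fold) and Prdm14 complete the rises.

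The network did not move as a unit. Pou5f1, which encodes OCT4, read 476, 701 and 582 in wild types and 739, 731 and 421 in knockouts and did not pass (0.07 ± 0.21, adjusted p = 0.848), nor did Sall4 (-0.09 ± 0.10, 0.607), Utf1 (0.00 ± 0.23, 0.994) or Dppa3 (0.30 ± 0.15, 0.228). Tfcp2l1, a factor of naive pluripotency, fell from 126, 203 and 146 to 67.1, 55.4 and 50.2 (-1.44 ± 0.24, adjusted p = 0.00196). Klf4 fell from 118, 124 and 142 to 56.03, 71.6 and 83.2 (1.84-fold, adjusted p = 0.0379) and Dppa4 from 2254, 2399 and 2685 to 1668, 1632 and 858 (1.84-fold, adjusted p = 0.0128). Between 1 and 4 genes of the network fell when a single array was left out, with 1 without wild type 3. Sall4, Utf1 and Dppa3 were chosen after their values were seen.

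**Figure D3:**
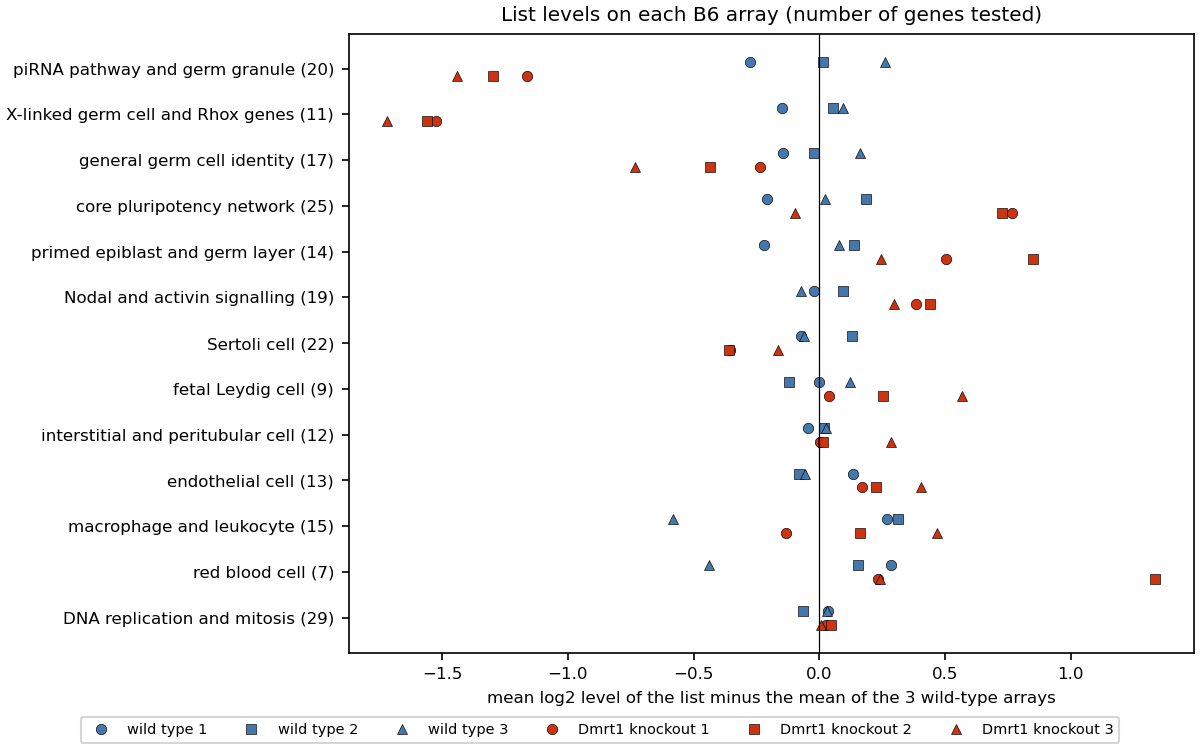
Mean log2 level of 13 gene lists on each array minus the mean of the 3 wild-type arrays (horizontal axis), with wild types in blue and knockouts in red. The piRNA and X-linked lists lie more than 1 log2 unit to the left on all 3 knockouts, whereas the core pluripotency list lies near 0.7 on knockouts 1 and 2 and at -0.10 on knockout 3.

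Genes of the primed epiblast, the state that follows naive pluripotency, and of the first germ layers rose in part. Of 14 tested, 5 rose, 1 fell and 8 did not pass, against 2.45% of all tested genes that rose and 5.45% that fell. The median was 0.47, and Apela, Trh and Lhx1 were placed in the list with earlier results of these data known. Otx2, a homeobox gene of the epiblast and the anterior head, read 8.03, 17.3 and 7.87 in wild types and 116, 136 and 49.95 in knockouts. It passed from near or below the limit of signal to clear signal on all 3 knockouts, least on knockout 3 (3.16 ± 0.37, SE, limma adjusted p = 0.000138, at least 5.76-fold). Lhx1, a LIM homeobox gene, read 20.4, 27.4 and 26.03 against 261, 216 and 38.9, and its rise (2.41 ± 0.54, adjusted p = 0.0126) was lost without knockout 2 (adjusted p = 0.0559). In the fit over probe sets, 1 of the 2 Lhx1 probe sets passed. Eomes, a T-box gene of mesendoderm, read 8.91, 9.76 and 8.03 against 31.3, 32.2 and 21.01, at least 1.73-fold higher (1.64 ± 0.25, adjusted p = 0.000994), a call lost with log2 values floored at 4 (adjusted p = 0.0543). Trh, the thyrotropin-releasing hormone gene, rose from 8.12, 13.3 and 8.46 to 25.7, 35.9 and 30.8, and Apela, a peptide hormone gene of early embryos, from 10.00, 17.3 and 15.98 to 21.6, 26.2 and 73.4, the latter lost without wild type 1, 2 or 3 or knockout 3 (adjusted p up to 0.128).

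Afp, the alpha-fetoprotein gene of visceral endoderm and fetal liver, went the other way. It read 501, 655 and 909 in wild types and 33.3, 70.9 and 39.9 in knockouts, a 14.7-fold fall (-3.88 ± 0.31, adjusted p = 4.07e-06) in which all 3 of its probe sets passed.

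Nodal, the TGF-beta family ligand that maintains primed pluripotency and acts in fetal male germ cells, rose together with its inhibitors. Of 19 genes of Nodal and activin signalling 4 rose and 15 did not pass, against 2.45% of all tested genes that rose. Nodal read 19.05, 31.1 and 17.1 in wild types and 59.6, 65.8 and 60.5 in knockouts, even across the 3 knockouts (1.52 ± 0.24, SE, limma adjusted p = 0.00119). Lefty1, a secreted Nodal inhibitor and target, read 19.5, 15.1 and 10.2 against 63.2, 63.2 and 28.9 (1.75 ± 0.32, adjusted p = 0.00317). Lefty2, its relative, rose from 955, 715 and 899 to 1335, 1312 and 1149.8 (1.49-fold, adjusted p = 0.0499), lost without any single B6 array (adjusted p up to 0.175). Tdgf1, the Nodal co-receptor CRIPTO, read 7.41, 12.4 and 9.77 against 29.6, 34.7 and 11.03 and did not pass (1.22 ± 0.39, adjusted p = 0.0692), although it passed without knockout 3 (difference 1.73, adjusted p = 0.00281). Gdf3 was the fourth that rose. The count of 4 became 2 without wild type 1, wild type 3, knockout 1 or knockout 2, and 5 without knockout 3.

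In GDNF signalling, by which Sertoli cells support spermatogonia, 2 of 13 tested genes rose and 2 fell. The shares over all tested genes were 2.45% and 5.45%. Gdnf, the ligand, read 114, 141 and 115 in wild types and 61.5, 57.3 and 79.5 in knockouts (-0.90 ± 0.18, adjusted p = 0.00728), and Ret, the receptor, is given above. Etv4 rose from 8.88, 9.80 and 9.35 to 15.9, 18.97 and 17.7, around the limit of signal, lost without wild type 1 or 3 or knockout 2 (adjusted p up to 0.0707), and its relative Etv5 did not pass (0.15 ± 0.25, adjusted p = 0.733). Gfra1, the co-receptor, overlapped between groups (0.50 ± 0.25, adjusted p = 0.227). Etv4 was also lost with log2 values floored at 4 (adjusted p = 0.622). Lhx1 was the other rise, and the rises were 1 without wild type 1 or 3 and 0 without knockout 2. Etv5 and Gfra1 were chosen after their values were seen.

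In the other signalling lists between 0 and 3 genes rose, beside 2.45% of all tested genes that rose and 5.45% that fell. Of 24 WNT genes, Wnt4 and Lrp5 rose and Rspo2, a secreted amplifier of WNT signals, fell (3 fell without knockout 1). Rspo2 read 8.87, 13.9 and 16.9 against 4.12, 4.33 and 6.63, lost without wild type 2 or 3 (adjusted p up to 0.0779), and Lrp5, a WNT co-receptor, rose 1.84-fold (adjusted p = 0.0159), lost without wild type 3 (adjusted p = 0.085). Of 21 Notch genes, the ligand gene Dll1 and the targets Hes6 and Hey1 rose, between 1.47-fold and 1.69-fold, but 1 rose without knockout 3 or wild type 3. Hes6 held without any single array, though 1 of its 2 probe sets passed in the fit over probe sets. Dll1 was lost without wild type 2 or 3 or knockout 1, 2 or 3 (adjusted p up to 0.125), and Hey1 without wild type 1 or 3 or knockout 3 (adjusted p up to 0.111). Of 17 BMP genes the inhibitor Smad6 rose 1.76-fold, lost without wild type 2 or 3 or knockout 1, 2 or 3 (adjusted p up to 0.188). Of 15 genes of retinoic acid synthesis, binding and breakdown the receptor Rxrb rose 1.55-fold, lost without wild type 1, 2 or 3 or knockout 3 (adjusted p up to 0.125). With limma, none of 12 FGF genes and none of 13 hedgehog genes passed. At an unadjusted p under 0.05, 3 FGF and 4 hedgehog genes did, beside 3150 of all 12726 tested genes. Without knockout 1, 2 hedgehog genes rose.

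**Figure D4:**
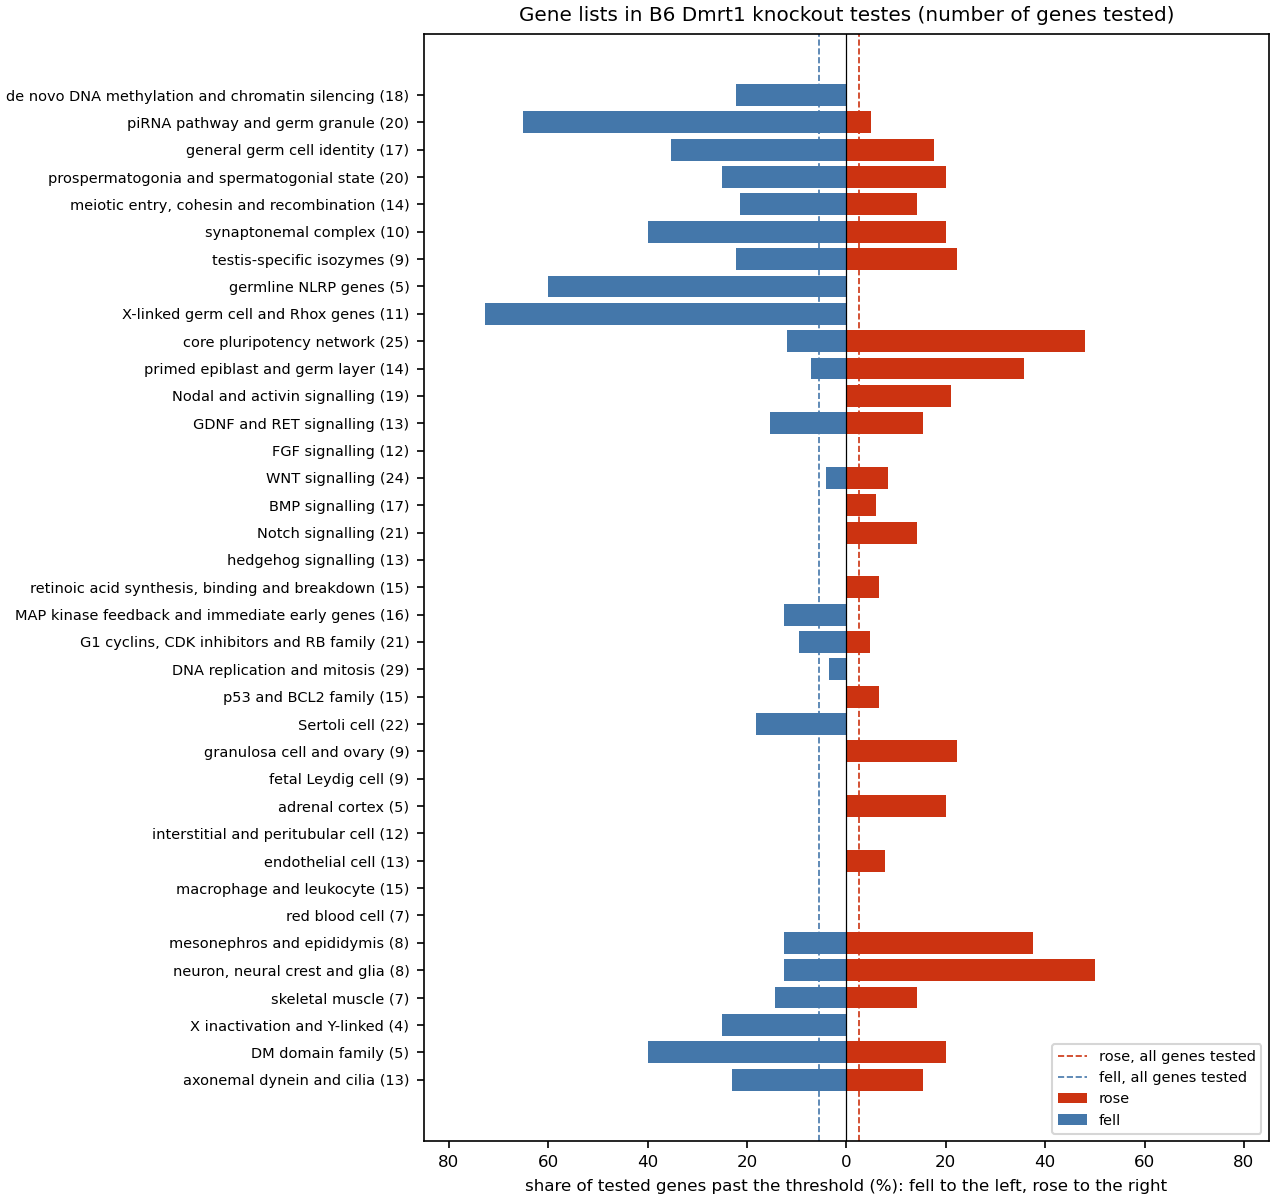
Share of the tested genes of each list that fell (blue, to the left) or rose (red, to the right), in percent, with the number of genes tested in brackets. Dashed lines mark the shares over all tested genes, 5.45% lower and 2.45% higher, and the X-linked, piRNA and NLRP lists reach furthest to the left.

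Among 16 genes of MAP kinase feedback and early response, 2 fell, against 5.45% of all tested genes. Of these, Rrad was placed in the list with earlier results of these data known. Rrad, a RAS-related GTPase gene, read 336, 469 and 661 in wild types and 16.7, 14.9 and 59.9 in knockouts, lower on all 3 knockouts (-4.26 ± 0.50, adjusted p = 0.000122). The zinc finger gene Egr2 fell from 34.5, 46.3 and 43.9 to 18.8, 20.1 and 9.12, lost without wild type 3 (adjusted p = 0.0523). Fos did not pass (0.04 ± 0.22, adjusted p = 0.934).

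Cell cycle genes were close to their wild-type level. The counts below stand beside 5.45% of all tested genes that fell and 2.45% that rose. Of 29 genes of DNA replication and mitosis, the spindle checkpoint gene Mad2l1 fell 1.31-fold (adjusted p = 0.024), lost without wild type 2 or 3 or knockout 1 or 3 (adjusted p up to 0.0972), and the list's median was 0.00. Mki67, a marker of dividing cells, read 2743, 2238.3 and 2691 against 3085, 3834 and 3320.5, without overlap, and did not pass (0.42 ± 0.14, adjusted p = 0.0927). Top2a, a topoisomerase of dividing cells, did not pass either (0.31 ± 0.14, adjusted p = 0.171). Of 21 genes of G1 control, the cyclin genes Ccnd1 and Ccnd2 moved in opposite directions. Ccnd1 rose from 513, 767 and 594 to 878, 996 and 826 (1.46-fold), lost without wild type 1 or 3 or knockout 1 or 2 (adjusted p up to 0.133), and Ccnd2 fell from 3117, 3641 and 3245 to 2484, 2712 and 2194 (1.36-fold), lost without wild type 2 or 3 or knockout 3 (adjusted p up to 0.112). In the fit over probe sets, none of the 3 Ccnd1 probe sets and 5 of the 7 Ccnd2 probe sets passed. Cdkn2a, a locus of 2 tumour suppressors, fell 1.92-fold (adjusted p = 0.0186), lost without wild type 3 (adjusted p = 0.106). Of 15 genes of the p53 and BCL2 families the pro-apoptotic gene Pmaip1 (NOXA) rose, from 599, 982 and 691 to 1983, 1932 and 789.9. Knockout 3 lay within the wild types, and the rise (adjusted p = 0.0475) was lost without wild type 1 or 3 or knockout 1 or 2 (adjusted p up to 0.155). Without knockout 3, 3 genes of G1 control and 2 of the p53 and BCL2 families rose.

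Of 22 Sertoli cell genes tested, Dmrt1 and 3 others fell, against 5.45% of all tested genes, and 18 did not pass, with a median of -0.07. Their average log2 level was 10.04 to 10.25 in wild types and 9.76 to 9.95 in knockouts. Cst9, a cystatin gene of fetal Sertoli cells, read 3503, 3719 and 3495 in wild types and 1371, 1400.0 and 1439.8 in knockouts, with little spread inside either group (-1.35 ± 0.09, SE, limma adjusted p = 4.38e-07). Hsd17b3, which makes testosterone from androstenedione, was likewise even within groups at 1872, 1889.7 and 1901 and 1171, 1324 and 1108 (-0.66 ± 0.12, adjusted p = 0.00445). Sox8 fell from 74.2, 128 and 100.4 to 59.02, 45.00 and 32.1 (2.24-fold), lost without wild type 2 or 3 or knockout 2 or 3 (adjusted p up to 0.092). Sox9, the testis-determining relative of Sox8, overlapped between groups at 874, 971 and 1072 and 788, 557 and 899.8 (-0.40 ± 0.17, adjusted p = 0.168), and so did Amh, the anti-Müllerian hormone gene (0.45 ± 0.27, adjusted p = 0.309). Dhh, the hedgehog ligand of Sertoli cells, differed by -0.03 ± 0.13 and did not pass (adjusted p = 0.903). Fshr, the receptor for follicle-stimulating hormone, chosen after its values were seen, fell from 22.04, 26.8 and 27.9 to 5.89, 6.45 and 7.20 (-1.97 ± 0.21, adjusted p = 6.97e-05).

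Of 9 tested genes of granulosa cells, the ovarian counterpart of Sertoli cells, 2 rose, against 2.45% of all tested genes, and 7 did not pass. The count of 2 was the same with any single array left out. Wnt4, a ligand of ovarian development, read 264, 210.2 and 202 in wild types and 390.1, 419 and 368 in knockouts (0.81 ± 0.16, adjusted p = 0.00663). In the fit over probe sets, 1 of its 2 probe sets passed. Gng13, a G protein subunit gene enriched in the fetal ovary, read 157, 218 and 144 against 618, 725 and 265 (1.53 ± 0.31, adjusted p = 0.00631), with knockout 3 just above the highest wild type, and 1 of its 2 probe sets passed. Foxl2, the main transcription factor of granulosa cells, did not pass the filter and read between 9.7 and 54.33 on the 6 arrays.

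The markers of other cell types bear on knockout 3. The counts below stand beside 2.45% of all tested genes that rose and 5.45% that fell. The mean log2 level of 9 fetal Leydig cell genes was 10.95 to 11.19 in wild types, 11.11 and 11.32 on knockouts 1 and 2, and 11.63 on knockout 3. None passed in limma with 1 probe set for each gene, 5 had an unadjusted p under 0.05, and 3 rose without knockout 1. For comparison with this and the next lists, 3150 of all 12726 tested genes had an unadjusted limma p under 0.05. In the fit over probe sets, 1 of the 2 Cyp11a1 probe sets was called higher. Their differences were 0.23, for the probe set that stood for the gene, and 0.88. For 15 macrophage and leukocyte genes it was 6.51 to 7.41 in wild types, 6.96 and 7.25 on knockouts 1 and 2 and 7.56 on knockout 3. None passed in limma, 2 had an unadjusted p under 0.05, and 2 rose without knockout 1. Csf1r, a macrophage receptor gene, read 113, 174 and 504 on the knockouts, and Ptprc (CD45), a leukocyte gene, 29.3, 28.96 and 117. Of 13 endothelial genes Cldn5 rose 1.64-fold, a call lost without wild type 1, 2 or 3 or knockout 2 or 3 (adjusted p up to 0.134), and the list's level was highest on knockout 3 (7.80, against 7.31 to 7.62 on the other 5 arrays). None of 12 interstitial and peritubular genes passed in limma, and 0 had an unadjusted p under 0.05. None of 7 red blood cell genes passed in limma (1 at an unadjusted p under 0.05, and 2 rose without knockout 1), and their level was highest on knockout 2 (8.49, against 6.72 to 7.44). In the adrenal list 1 of 5, the nuclear receptor gene Nr0b1 (DAX1), rose 1.84-fold, lost without wild type 3 (adjusted p = 0.0622). The part of these cells in the results was not tested.

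Markers of tissues beside the testis differed in level. Among the genes tested, the mean log2 level on the 6 arrays was 4.74 to 5.49 for skeletal muscle and 5.01 to 5.59 for neural genes. For mesonephros and epididymis genes it was 6.44 to 7.29, well above the limit of 4. Over all tested genes 5.45% fell and 2.45% rose. Of 7 skeletal muscle genes 5 were higher and 1 lower in limma at an unadjusted p under 0.05. Counting either direction, 3150 of all 12726 tested genes passed at that p. The list's median was 0.60, beside 0.03 over all tested genes. Past the threshold were the myosin genes Myh8, which rose, and Myh3, which fell, at intensities of at most 40.3. Myh8 was lost without wild type 1, 2 or 3 or knockout 2 or 3 (adjusted p up to 0.153) and Myh3 without wild type 2 or 3 or knockout 2 (adjusted p up to 0.147). The defining factor Myod1 did not exceed 5.76 on any array. Of 8 mesonephros and epididymis genes, Krt8 (1.68-fold), Epcam (2.14-fold) and Lhx1 rose and Ret fell, while Pax8, which defines these ducts, did not pass (-0.13 ± 0.34, adjusted p = 0.835). Krt8 was lost without wild type 1 or 3 or knockout 3 (adjusted p up to 0.126), and Epcam without wild type 1 or knockout 2 (adjusted p up to 0.0771), so that 1 gene rose without wild type 1 or knockout 2. Of 8 neural genes 4 rose and 1 fell, and several of these were placed in the list with their results known. Tubb3, the neuronal tubulin gene, rose from 72.8, 121 and 97.6 to 191, 185 and 228 (1.08 ± 0.22, adjusted p = 0.00787). Th, the tyrosine hydroxylase gene, read 7.23, 8.16 and 6.67 against 12.3, 12.6 and 12.8, below the limit of signal on all 6 arrays, and its call was lost without any single B6 array (adjusted p up to 0.152). Of 4 Y-linked genes tested, Usp9y, a deubiquitinase gene, fell from 24.5, 37.6 and 36.1 to 8.14, 6.97 and 13.2 (-1.82 ± 0.32, adjusted p = 0.00283).

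**Figure D5:**
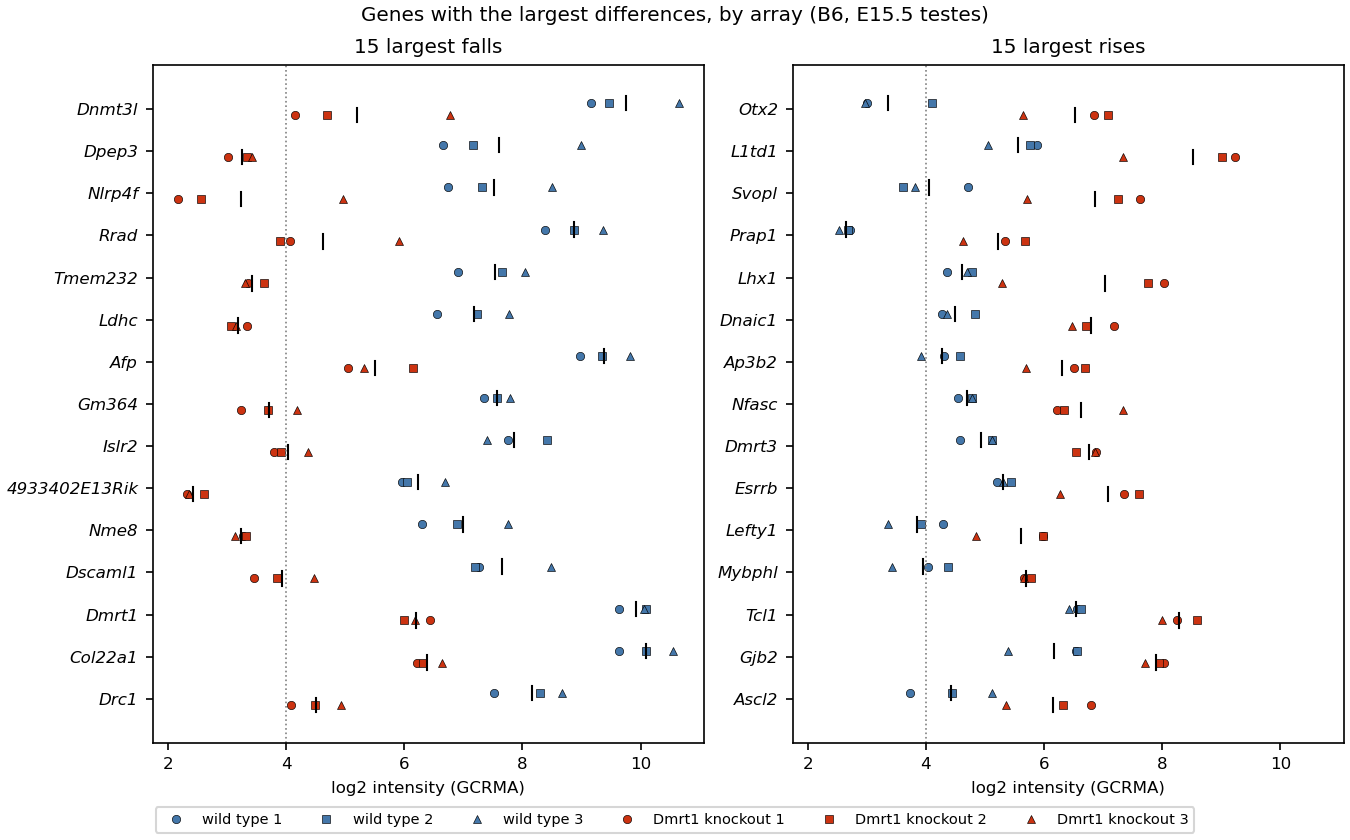
Log2 intensity (horizontal axes) of the 15 genes with the largest falls (left) and the 15 with the largest rises (right) on each wild-type array (blue) and knockout array (red), with vertical bars at the group means and a dotted line at 4. The groups do not overlap in any of the 30, and knockout 3 is the knockout nearest to the wild types in many of the rises, such as Lhx1 and L1td1.

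Several of the deepest falls lay outside the germ cell lists. Dpep3, a membrane dipeptidase gene of the testis, read 101, 143 and 509.9 in wild types and 8.14, 10.2 and 10.7 in knockouts (-4.34 ± 0.53, adjusted p = 0.00016), at least 12.2-fold lower. Tmem232, a transmembrane protein gene, read 121, 200.4 and 265 against 10.2, 12.3 and 9.85 (-4.11 ± 0.36, adjusted p = 1.01e-05). Nme8, a thioredoxin domain gene of cilia and sperm tails, fell at least 7.94-fold and the uncharacterised gene 4933402E13Rik at least 4.71-fold. All 4 were below an intensity of 16 on every knockout array. Gm364, a predicted gene, read 163, 191 and 221 against 9.49, 13.00 and 18.2, and fell by 3.86 on the log2 scale (adjusted p = 1.15e-07).

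Col22a1, a collagen gene, read 794, 1089 and 1505 in wild types and 74.4, 79.5 and 99.7 in knockouts (-3.70 ± 0.43, SE, limma adjusted p = 0.000115), and both probe sets passed. Islr2, a leucine-rich repeat protein gene of growing axons, read 217, 339.9 and 169 against 13.9, 15.1 and 20.8, a 14.2-fold fall (adjusted p = 2.58e-06). Dscaml1, an immunoglobulin family adhesion gene of neurons, read 154, 147 and 359.9 against 10.9, 14.4 and 22.2, at least 12.6-fold lower (adjusted p = 3.72e-05). L1cam, another neural adhesion gene, chosen after its values were seen, read 23.7, 29.9 and 74.97 against 7.52, 11.02 and 9.96 (-2.002 ± 0.39, adjusted p = 0.00557), lost with log2 values floored at 4 (adjusted p = 0.0761).

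Further falls were chosen after their values were seen. Foxq1 and Foxf1, forkhead transcription factor genes, read 269, 387 and 278 and 110.2, 128 and 125 in wild types and 25.2, 28.7 and 25.6 and 14.6, 11.2 and 9.44 in knockouts. Foxq1 was set apart by a wide gap on every array (-3.54 ± 0.20, adjusted p = 1.15e-07), and Foxf1 fell at least 7.55-fold (-3.38 ± 0.30, adjusted p = 1.01e-05). Irs4, an X-linked insulin receptor substrate gene, read 33.4, 39.6 and 56.4 against 8.78, 6.85 and 5.42. Fabp9 and Akap4, genes of the sperm head and tail, fell at least 5.94-fold and at least 1.19-fold, the latter lost with log2 values floored at 4 (adjusted p = 0.461), and Gzma, a granzyme gene, read 93.4, 109.6 and 154 against 6.56, 5.85 and 29.7 (-3.48 ± 0.55, adjusted p = 0.00114).

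Svopl, a transporter-like gene among the 15 largest rises, read 26.2, 12.2 and 14.1 in wild types and 198, 153 and 52.5 in knockouts (2.82 ± 0.43, SE, limma adjusted p = 0.000967). Prap1, a secreted proline-rich protein gene, passed from 6.59, 6.43 and 5.80, below signal, to 40.6, 51.1 and 24.6 (2.57 ± 0.28, adjusted p = 7.87e-05). Gjb2, the connexin 26 gene, read 93.5, 94.2 and 42.00 against 261, 246 and 209.6 (1.73 ± 0.27, adjusted p = 0.00112). Mybphl, a myosin-binding protein gene, was even on the knockouts at 50.5, 55.04 and 50.6, up from 16.4, 20.9 and 10.8. Ascl2, a bHLH factor gene of the placenta and of intestinal stem cells, read 13.3, 21.6 and 34.6 against 111, 79.6 and 40.9 (1.73 ± 0.37, adjusted p = 0.0104), lost with only the 6 B6 arrays in the fit (adjusted p = 0.0544). Ap3b2, a neuronal vesicle coat subunit gene, read 19.8, 23.8 and 15.2 against 90.6, 103 and 52.00, and Nfasc, the neurofascin gene, 23.4, 27.4 and 27.5 against 74.2, 80.95 and 161, highest on knockout 3. The other Nfasc probe set differed in the opposite direction (-0.94) and did not pass, and with the mean of both the rise was lost (adjusted p = 0.211).

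The following rises were chosen after their values were seen. Ooep, an oocyte protein gene, read 594, 891 and 632 in wild types and 1824, 1825 and 1949.6 in knockouts (1.43 ± 0.19, adjusted p = 0.000239), and Khdc3, of the same maternal complex, 6.43, 7.91 and 6.18 against 24.04, 25.2 and 13.5, the latter lost with log2 values floored at 4 (adjusted p = 0.235). Hesx1, a homeobox gene of the anterior embryo and pituitary, read 121, 173 and 119 against 594, 580.1 and 259.6 (1.72 ± 0.31, adjusted p = 0.00274). Siglecf, a lectin gene of eosinophils, read 93.6, 88.6 and 80.6 against 328, 235 and 215 without overlap (1.54 ± 0.20, adjusted p = 0.000199). Prg2, the eosinophil major basic protein gene, read 51.2, 4.77 and 10.6 against 161, 28.02 and 354, with overlap, and was lost without wild type 2 or 3 or knockout 1 or 3 (adjusted p up to 0.145). Lcn2, a neutrophil lipocalin gene, read 70.3, 17.8 and 29.5 against 65.4, 255 and 393, with overlap and highest on knockout 3, and was lost without wild type 2 or 3 or knockout 2 or 3 (adjusted p up to 0.112).

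The DM domain family and the neighbours of Dmrt1 on the chromosome were also examined. Dmrt3, the gene next to Dmrt1 among those tested, rose from 23.99, 34.8 and 34.6 in wild types to 117, 93.6 and 116 in knockouts. The 3 knockouts were close to each other and well above the wild types (1.82 ± 0.23, SE, limma adjusted p = 0.000187), and both of its probe sets passed. Dmrtc2 fell from 15.6, 17.9 and 23.3 to 7.26, 7.20 and 12.1, below the limit of signal, lost without wild type 2 or 3 or knockout 1 or 2 (adjusted p up to 0.137). Dmrta1 (-0.57 ± 0.25, adjusted p = 0.177) and Dmrtc1a (-0.08 ± 0.24, 0.857) did not pass.

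Of the 8 tested genes on each side of Dmrt1 in the RefSeq order, Dmrt3 rose, Pgm5 and Dock8 fell and 13 did not pass. The shares over all tested genes were 2.45% that rose and 5.45% that fell. Pgm5, a phosphoglucomutase-like gene and 4th on its side, read 542, 737 and 532 against 297, 287 and 311 (-1.002 ± 0.24, adjusted p = 0.0189), lost without wild type 2 or knockout 2 (adjusted p up to 0.0878). Dock8, an activator of CDC42 in immune cells and 2nd on the same side, read 80.9, 68.01 and 74.4 against 32.99, 44.9 and 45.1 (-0.87 ± 0.22, adjusted p = 0.0255), lost without wild type 1, 2 or 3 or knockout 1 (adjusted p up to 0.0913). Kank1, which lies between Dock8 and Dmrt1, differed by 0.39 ± 0.15 and did not pass (adjusted p = 0.126). Among the 13 the differences ran from -0.59 (Cbwd1) to 0.55 (Pum3).

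The core of the sequence that DMRT1 is known to bind, ACATTGT, was searched on both strands of the 250 bases before each gene start in RefSeq promoters of build GRCm38.p6. It contains ATTGT, which SOX proteins also recognise, and on the reverse strand it reads ACAATGT. The motif stood in 2.56% of all 32851 windows. By gene, it was found for 1.66% of the 10269 tested genes with a promoter entry, for 6 of 252 genes called higher (2.38%) and for 10 of 546 called lower (1.83%), and these shares are a description. Among genes that changed by at least 1 log2 unit it stood in 3 of 74 that rose (4.05%) and 7 of 304 that fell (2.3%). None of 14 of the largest rises and none of 11 of the largest falls had it, which says only that these letters are not in these windows. It was present for 3 of 91 named genes past the threshold, Stra8, Nanog and Dll1. Their windows are shown because they are the named genes whose promoters hold the motif, with the 30 bases on each side in lower case and the motif in capitals, 5′ to 3′ on the strand of the gene.
Stra8 (chr6:34920773-34920839, plus strand, 145 bases before the start): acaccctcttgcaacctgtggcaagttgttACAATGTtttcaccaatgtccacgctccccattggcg
Nanog (chr6:122707392-122707458, plus strand, 67 bases before the start): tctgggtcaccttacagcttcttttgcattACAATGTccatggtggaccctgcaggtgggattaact
Dll1 (chr17:15377115-15377181, minus strand, 219 bases before the start): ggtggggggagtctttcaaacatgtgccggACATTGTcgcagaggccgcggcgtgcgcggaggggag
Of these 3 genes Stra8 fell and Nanog and Dll1 rose, so the motif stood before genes of either direction.

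Part of the B6 result was shared with 129Sv. Of the genes called in B6, 120 of the 312 higher and 264 of the 693 lower were also called in 129Sv in the same direction. Both sets of calls came from 1 fit with a shared estimate of spread. The share of all tested genes called in 129Sv was not set beside these counts, so they do not show an excess. The knockout effect differed between strains for 167 genes, 1.31% of those tested, and 89 of these were called in B6, 76 with a more negative and 13 with a more positive effect in B6. The 89 were taken by their B6 call, and more genes were called lower than higher in B6. Their split therefore depends in part on that choice. By list, the effect differed for 7 of the 11 X-linked germ cell genes, 7 of the 25 core pluripotency genes and 6 of the 14 primed epiblast and germ layer genes. Apela and Trh, among the latter, were placed in that list with earlier results of these data known. Gtsf1, of the piRNA list, gave -2.62 ± 0.22 in B6 and -0.09 ± 0.22 in 129Sv, a fall called in B6. Nanog gave 1.70 ± 0.22 in B6 and 3.36 ± 0.22 in 129Sv, a smaller rise in B6 and thus also a more negative effect.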

How the data were processed

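The deposited values are intensities on a linear scale that the authors made with GCRMA (background adjustment by probe sequence, quantile normalisation and 1 summary per probe set), per the submitters' processing notes. The sources used here give neither its version nor its settings. The lowest deposited intensity was 1.4 and no column was left unmapped, and log2 was taken here with no pseudocount. Groups and replicate numbers came from the sample descriptions. Gene names came from the platform annotation of the probe sets, of which 34958 had 1 gene, 932 several and 9211 none, and 34754 matched a RefSeq symbol; only those with 1 gene were named, and the 64 control probe sets stayed out. The probe set brightest on average over all 12 arrays stood for its gene, and genes with log2 of at least 4 on at least 3 arrays were tested.

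With limma 3.58.1 under R 4.3.3, 1 model with a mean for each of the 4 groups was fitted to all arrays (lmFit, eBayes with trend, 8 residual and 6.71 prior degrees of freedom). Benjamini-Hochberg adjustment ran over all 12726 genes, with 0.05 as the threshold. "Rose" and "fell" are used of genes past it. Errors of log2 differences are standard errors of this fit, and n is 3 per group. The fit was tested on simulated data. Tables were made with Python 3.11.15 and pandas 2.3.3. The 3 arrays per group limit the precision.

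The comparison, its gene lists and the genes placed in them (such as Ap3b2, Nfasc and Islr2 among neural genes, Rrad among early response genes, and Apela, Trh and Lhx1 among primed epiblast genes) were chosen with earlier results of these data known. The rule for named genes takes the 15 largest rises and the 15 largest falls among genes past the threshold without overlap and with a mean log2 of at least 5 in the higher group, up to 6 passing genes and the first 2 genes of each list, the DM domain genes and 8 tested genes on each side of Dmrt1. Other genes of a list are named only to complete its count or were chosen after their values were seen.

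Replicate numbers were checked for pairing. The deviations of same-numbered wild-type and knockout arrays correlated at 0.008, 0.003 and -0.039, so the numbers were not taken to pair the samples.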

Additional observations from a re-analysis of the deposited data

Results flagged for a closer look

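The knockout effect of 23 of the genes given above differed between B6 and 129Sv by limma's test of that difference (Benjamini-Hochberg over all tested genes, adjusted p under 0.05). Each value is the log2 knockout effect in B6 minus that in 129Sv, with 3 arrays per group. 22 of the 23 are more negative in B6. Many of these genes were named for their difference in B6, which also enters this value. The tally therefore depends in part on how the genes were chosen.

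Among genes of DNA methylation, transposon silencing and meiosis the difference was -3.73 ± 0.73 for Dnmt3l (adjusted p = 0.0266), -2.54 ± 0.31 for Gtsf1 (0.0012), -1.74 ± 0.27 for Morc1 (0.00661) and -1.57 ± 0.29 for Sycp3 (0.0206). Sycp3 fell in B6 while its 129Sv difference was 0.32.

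X-linked germ cell genes were the largest group. The differences were -2.58 ± 0.33 for Rhox13, -2.42 ± 0.51 for Nxf2, -2.41 ± 0.29 for Magea5, -2.31 ± 0.43 for Nxf3, -2.21 ± 0.50 for Tktl1 and -1.53 ± 0.25 for Taf7l. Irs4, also on the X chromosome, differed by -2.10 ± 0.44, and the NLRP gene Nlrp14 by -2.19 ± 0.39.

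Of genes that rose in B6, Nanog differed by -1.67 ± 0.31, Sox2 by -1.79 ± 0.35, Trh by -2.46 ± 0.41, Apela by -2.23 ± 0.51 and Ooep by -1.21 ± 0.26, so their rises were smaller in B6 than in 129Sv. Lcn2 had the single positive value, 3.91 ± 0.89 (adjusted p = 0.0455), on arrays that overlapped within B6.

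The remaining values were -3.31 ± 0.31 for Gm364 (adjusted p = 0.000227), -2.24 ± 0.44 for Afp, -2.15 ± 0.43 for Foxf1, -1.80 ± 0.28 for Foxq1 and -1.08 ± 0.24 for Dmrt1 itself (adjusted p = 0.045). Groups of 3 arrays are too small for a test of single outlying arrays.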

How the results depend on the processing

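The difference of Dmrt1 passed under every alternative run. Of 312 higher and 693 lower genes, the counts were 99 and 391 with only the 6 B6 arrays in the fit, 931 and 1235 with array weights (0.20 for knockout 3), and 95 and 400 with a 2-fold difference also required, while the Actb ratio as a covariate gave 141 higher genes. With the replicate number as a replicate block 148 genes were higher and 505 lower, and 142 and 495 of these were shared with the calls above. The numbers were not taken to pair the samples, though pairing was not excluded. Of these counts only that of higher genes moved by more than 1.5 times. Leaving out 1 B6 array gave 109 to 533 higher and 322 to 743 lower genes. The causes of these moves were not tested. Other filters, no variance trend, quantile normalisation, median centring, a pseudocount of 16, a floor of log2 at 4, the mean of all probe sets and a title number as a random block kept both counts within 1.5 times. No named gene past the threshold changed direction under an alternative. Of the 128 named calls, 41 were lost with only the 6 B6 arrays, 27 with the Actb ratio as a covariate, 24 with the floor at 4, 22 with the replicate block and 15 with the pseudocount. Leaving out 1 array lost between 18 (knockout 1) and 41 (wild type 3) of them. Signal over background limits genes with a group mean below log2 4, such as Th, whose values all lie below it.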
